A study of Mus musculus with 8 samples.

Results

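Transcripts of haemoglobin and of red cell haem synthesis were followed in RNA sequencing of quadriceps, the large muscle at the front of the thigh, from 8 female mice aged 6 months. They are the adult beta globins Hbb-bs and Hbb-bt, the adult alpha globins Hba-a1 and Hba-a2, and Alas2. These 5 genes were chosen by name as a measure of blood in the sample, among 43239 named genes, and all 5 were among the 11878 genes tested. The 4 libraries labelled knockout (KO) carry the genotype Mss51-/-, and the 4 labelled wild type (WT) are their controls, with quadriceps taken from each mouse. The labels give no strain, batch or perfusion step, and the series title asks how deletion of Mss51, a mitochondrial protein of muscle, bears on muscle metabolism and glucose homeostasis. Values are FPKM as the authors deposited them, a level scaled both to transcript length and to the number of fragments mapped in the library.

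Haemoglobin carries oxygen in red cells as a tetramer of alpha and beta chains, each holding a haem group. The chains are made from globin mRNA that accumulates in erythroid precursors of the bone marrow and persists in reticulocytes, the young red cells that have shed their nucleus but still hold RNA. Alas2 is the erythroid form of 5-aminolevulinate synthase, the first enzyme of haem synthesis, while Alas1 serves other tissues. Skeletal muscle makes its own oxygen-binding haem protein, myoglobin, so adult globin mRNA in a muscle extract is commonly read as a sign of blood left in its vessels. In a bulk sample, fewer red cells and less RNA per red cell cannot be told apart.

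The labels were checked first on the targeted gene. Mss51 stood at 340, 200.9, 216 and 207 FPKM in the libraries labelled KO, replicates 1 to 4, against 22.9, 37.0, 27.5 and 24.8 FPKM in the libraries labelled WT. It was thus higher in every library labelled KO, the opposite of what that label leads to (log2 fold change 3.07, limma adjusted p = 0.000643), and every direction here is that of the labels. The tissue showed muscle genes at high levels, with the creatine kinase Ckm at 9230 to 12716 FPKM and the troponin Tnnc2 at 12674 to 17949 FPKM. Of the muscle markers, the fast myosin Myh4 is listed at 0 in all 8 libraries, and the troponin Tnnt3 in some of them. The calcium pump Atp2a1 is listed at 0 in most libraries, including every library labelled WT. None of the 5 genes followed here is listed at 0 in any library. A rough depth took the most crowded low value of genes with a single transcript as 1 fragment, sought within a preset range. It was 35.9 to 59.6 M fragments per library, so that the lowest Alas2 value stood for about 486 fragments.

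The sequences show why the copies of each chain are hard to tell apart. The beta pair lies on chromosome 7 of mm10, Hbb-bt (ENSMUSG00000073940) at 103812524 to 103813996 and Hbb-bs (ENSMUSG00000052305) at 103826534 to 103828096, both on the minus strand. The alpha pair lies on chromosome 11, Hba-a1 (ENSMUSG00000069919) at 32283511 to 32284465 and Hba-a2 (ENSMUSG00000069917) at 32296489 to 32297298, both on the plus strand. Each globin gene has 3 exons. In GENCODE M21 the coding sequences of the beta pair, 441 bases without the stop codon, differ at 1 base (C417T, Hbb-bs first, counted from the A of the start codon). Those of the alpha pair, 426 bases, also differ at 1 base (C381T, Hba-a1 first). The longest stretch shared by whole transcripts is 430 bases for the beta pair and 415 for the alpha pair. Aligned whole, the beta transcripts differ at 45 bases and 79 gap positions. The alpha transcripts differ at only 1 base, beside 177 gap positions. A fragment can thus be placed only where it reaches a differing base or a stretch that 1 annotated transcript holds and the other lacks. How the authors' counting split such fragments is not given in the sources used here, and the values of single copies are therefore uncertain, while the sum of each pair rests less on that split. Shown are 61 coding bases around the base that differs, which is in capitals.
Hbb-bs: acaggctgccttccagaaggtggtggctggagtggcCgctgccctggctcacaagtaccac
Hbb-bt: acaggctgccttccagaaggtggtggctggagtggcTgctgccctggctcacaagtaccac
Hba-a1: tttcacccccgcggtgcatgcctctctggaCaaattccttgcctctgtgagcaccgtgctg
Hba-a2: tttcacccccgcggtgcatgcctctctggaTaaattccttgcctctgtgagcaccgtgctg

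Alas2 (ENSMUSG00000025270) lies on chromosome X at 150547375 to 150570638, on the plus strand, and has 11 exons. In the deposited tables its entry spans 150519519 to 150643880, the same locus as the entries of Pfkfb1, an isoform of the enzyme that makes and breaks fructose 2,6-bisphosphate, and of Apex2, a DNA repair enzyme. Pfkfb1 stood at 37.3 to 45.9 FPKM in the libraries labelled KO against 29.8 to 34.5 FPKM in those labelled WT, and Apex2 at 2.11 to 2.73 against 1.87 to 2.93 FPKM. The Pfkfb1 groups did not overlap, but it did not pass (log2 fold change 0.34, limma adjusted p = 0.344). Neither gene spanned the range of Alas2 given below, and any share of reads passed between genes at this locus was not tested.

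The 4 adult globins and Alas2 varied together from library to library, as given below. As background, the 250 bases before each RefSeq start site (build GRCm38.p6) are shown for 4 of the genes. Whether these sequences have any part in that variation was not tested. Capitals mark 4 motifs sought on both strands: the GATA factor core GATAAG, the CACCC box CACCC, the CCAAT box CCAAT and the TATA box TATAA. Each was sought in the same 250 bases of 32851 RefSeq promoters, where they were present in 6.55%, 52.0%, 33.8% and 22.8%. All 4 motifs were present before each of the 4 adult globin genes, and in 0.289% of all promoters. Before Alas2 the CACCC box, 3 times in a row on the minus strand, and the TATA letters, on both strands from base -208 to base -203, were found. The GATAAG and CCAAT letters are not in that window. Only these exact letters were sought, so other forms of a GATA site were not looked for, before Alas2 or elsewhere.
Hbb-bs, chr7:103827929-103828178, minus strand: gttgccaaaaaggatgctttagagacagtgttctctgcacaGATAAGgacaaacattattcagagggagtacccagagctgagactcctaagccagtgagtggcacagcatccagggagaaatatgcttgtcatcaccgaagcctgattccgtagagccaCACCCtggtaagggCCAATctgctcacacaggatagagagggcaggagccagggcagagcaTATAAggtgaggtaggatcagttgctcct
Hbb-bt, chr7:103813924-103814173, minus strand: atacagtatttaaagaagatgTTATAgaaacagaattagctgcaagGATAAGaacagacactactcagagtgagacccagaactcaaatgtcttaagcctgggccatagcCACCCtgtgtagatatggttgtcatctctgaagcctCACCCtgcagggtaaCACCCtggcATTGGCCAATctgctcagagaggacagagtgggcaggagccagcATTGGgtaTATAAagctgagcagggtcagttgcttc
Hba-a1, chr11:32283422-32283671, plus strand: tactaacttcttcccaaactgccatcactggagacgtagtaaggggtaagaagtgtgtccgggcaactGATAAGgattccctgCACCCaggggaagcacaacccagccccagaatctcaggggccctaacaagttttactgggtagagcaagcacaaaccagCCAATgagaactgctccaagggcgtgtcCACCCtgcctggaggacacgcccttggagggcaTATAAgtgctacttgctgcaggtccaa
Alas2, chrX:150547167-150547416, plus strand: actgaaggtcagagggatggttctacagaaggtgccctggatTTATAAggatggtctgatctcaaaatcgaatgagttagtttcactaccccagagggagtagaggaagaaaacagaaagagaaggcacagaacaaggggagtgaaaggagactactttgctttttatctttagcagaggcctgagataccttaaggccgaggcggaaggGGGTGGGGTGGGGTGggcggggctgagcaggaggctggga

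The windows of Hba-a1 and Hba-a2 share an unbroken run of 247 bases, so that of Hba-a2 is not repeated. The beta windows are 69.3% identical over 257 aligned positions. The RefSeq start of each gene shown lies inside the span given for that gene above, so part of each window overlaps that span. In the globin windows shown, the TATA box nearest the start begins at base -29, -28 or -27, counted back from the start site, and lies on the plus strand.

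Hbb-bs, the beta globin copy with the more abundant transcript, had 1247, 749, 695 and 294 FPKM in the libraries labelled KO, replicates 1 to 4. It had 215, 243, 535 and 475 FPKM in those labelled WT. KO replicate 1 stood above all other libraries and KO replicate 4 between the lower and the upper pair of WT libraries, so the groups overlap. Among all named genes Hbb-bs ranked from place 64 in KO replicate 1 to place 367 in WT replicate 1. Its means were 746 ± 391 FPKM in the libraries labelled KO and 367 ± 162 FPKM in those labelled WT (SD, n = 4 each).

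Hbb-bt, the beta globin copy with the less abundant transcript, had 308, 140, 146 and 59.5 FPKM in the libraries labelled KO. It had 42.2, 48.7, 104 and 110 FPKM in those labelled WT. Hba-a1 had 862, 390, 380 and 168 FPKM in the libraries labelled KO and 146, 164, 356 and 296 FPKM in those labelled WT. Hba-a2 had 708, 300, 284 and 122 FPKM in the libraries labelled KO and 97.1, 113, 323 and 209 FPKM in those labelled WT. In each of these 3 genes the highest library was again KO replicate 1, the lowest was WT replicate 1, and the groups overlap. Alas2 was far less abundant, at 45.7, 18.7, 24.8 and 8.81 FPKM in the libraries labelled KO and 7.86, 6.42, 16.3 and 17.0 FPKM in those labelled WT. Its highest library was the same, and its lowest was WT replicate 2.

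**Figure D1:**
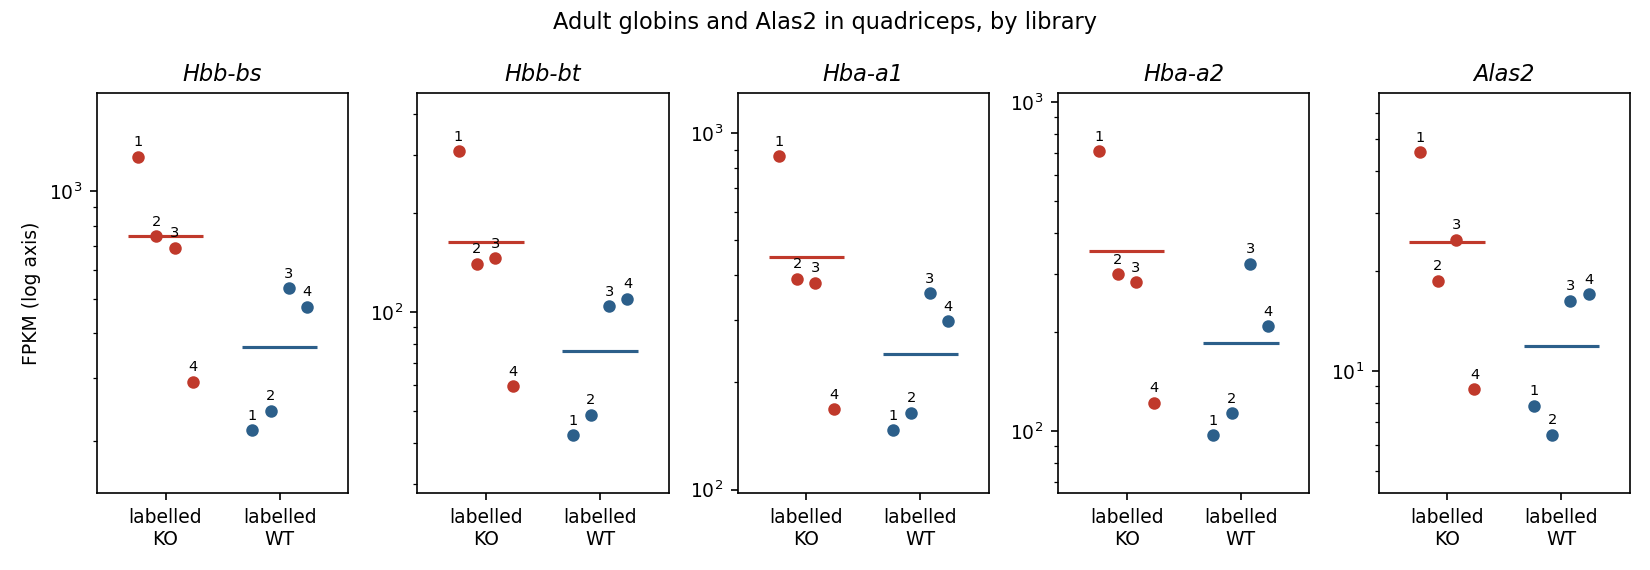
FPKM of the 5 genes in each library, on a log axis of its own for each gene. Points are libraries with their replicate number, and bars are arithmetic means of 4 libraries. For Hbb-bs the libraries labelled KO run from 294 to 1247 FPKM and those labelled WT from 215 to 535 FPKM.

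The difference between the groups was not past the test for any of the 5 genes. The log2 fold changes, labelled KO minus labelled WT on the log2(FPKM + 0.5) scale, were 0.96 for Hbb-bs (95% interval -0.07 to 1.99, adjusted p = 0.516) and 0.99 for Hbb-bt (-0.14 to 2.12, adjusted p = 0.537). For the alpha chains they were 0.77 for Hba-a1 (-0.31 to 1.85, adjusted p = 0.621) and 0.82 for Hba-a2 (-0.40 to 2.05, adjusted p = 0.650). For Alas2 it was 0.91 (-0.21 to 2.02, adjusted p = 0.563). All are from limma with Benjamini-Hochberg adjustment over 11878 genes, of which 0.0505% were called. So 0 of the 5 members were called, and 0 had an unadjusted p under 0.05, the smallest being 0.0642 for Hbb-bs, where 1219 of all tested genes had one. No other tool was run. The exact two-sided permutation p was 0.257 for Hba-a2 and 0.143 for each of the other 4 genes, where 0.0286 is the smallest the design allows. The intervals span folds from 0.952 to 3.97 for Hbb-bs, so these 8 libraries leave a wide range of folds undetermined.

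Single libraries moved that difference. Without KO replicate 1 the log2 fold change of Hbb-bs was 0.65 (95% interval -0.34 to 1.65, adjusted p = 0.566), and that of Hba-a1 was 0.38 (adjusted p = 0.740). Hba-a2 and Alas2 then stood at 0.40 and 0.54, and Hbb-bt at 0.61. Without KO replicate 4 the values were 1.35 for Hbb-bs, 1.40 for Hbb-bt, 1.16 for Hba-a1, 1.24 for Hba-a2 and 1.31 for Alas2. The unadjusted p values were then 0.00639 to 0.0315 and the adjusted ones 0.474 to 0.483. Without WT replicate 1 Hba-a1 was 0.57. Of the 5 members 0 were called without KO replicate 1, where 1.04% of 11884 genes were called. The sign was above 0 in each of these fits. Another setting divides each library by its summed FPKM of named genes, called the TPM scale from here on, and gave 0.75 for Hbb-bs and 0.72 for Alas2.

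**Figure D2:**
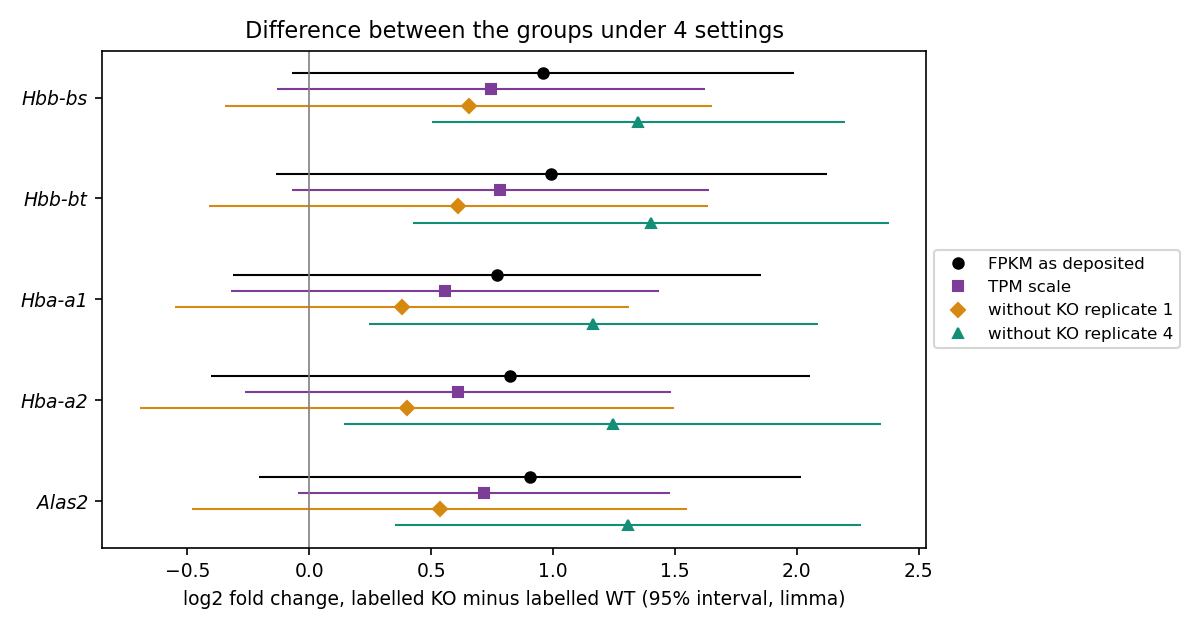
Log2 fold change, labelled KO minus labelled WT, with its 95% interval from limma, for the 5 genes under 4 settings. With FPKM as deposited each interval spans 0, while without KO replicate 4 the intervals lie above 0, though no adjusted p was under 0.474.

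The 5 genes varied more between libraries than most genes did, which is given as a description. In FPKM as deposited the highest library was 5.81 times the lowest for Hbb-bs, 7.30 for Hbb-bt, 5.88 for Hba-a1, 7.29 for Hba-a2 and 7.12 for Alas2. On the TPM scale KO replicate 4, whose summed FPKM of named genes was the highest, became the lowest library for all 5 genes. KO replicate 1 was then 10.2 times KO replicate 4 for Hbb-bs and 14.0 times for Hba-a2, with the other 3 genes between. The SD within groups on the log2 scale was 0.77 for Hbb-bs, 0.85 for Hbb-bt, 0.81 for Hba-a1, 0.92 for Hba-a2 and 0.83 for Alas2, against a median of 0.18 over all tested genes. Of the 11878 tested genes, 2.80% had a larger SD than Hbb-bs and 2.22% a larger one than Hba-a2. Among the 831 genes averaging 100 FPKM or more these shares were 6.02% and 5.66%.

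Within a library, in contrast, the 5 transcripts kept nearly fixed proportions. Summed FPKM of the 4 adult globins were 3125, 1579, 1504 and 643 in the libraries labelled KO and 501, 570, 1317 and 1090 in those labelled WT, a coefficient of variation of 66.1% over the 8 libraries. The ratio of alpha to beta globin was 1.01, 0.776, 0.790 and 0.822 in the libraries labelled KO and 0.948, 0.950, 1.06 and 0.863 in those labelled WT, a coefficient of variation of 11.7%. Its means were 0.849 ± 0.108 in the libraries labelled KO and 0.956 ± 0.0817 in those labelled WT (SD, n = 4 each), and the groups overlap.

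The copies within a pair kept their proportions too. Hbb-bt made up 15.8% to 19.8% of beta globin FPKM in the libraries labelled KO and 16.3% to 18.8% in those labelled WT. Hba-a2 made up 42.0% to 45.1% of alpha globin FPKM in the libraries labelled KO and 39.9% to 47.5% in those labelled WT. Alas2 stood at 1.19% to 1.65% of the summed adult globin FPKM in the libraries labelled KO and at 1.13% to 1.57% in those labelled WT. The coefficients of variation over the 8 libraries were 7.94%, 5.80% and 14.1% for these 3 shares. The part in these shares of how fragments from near-identical copies were divided was not tested.

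**Figure D3:**
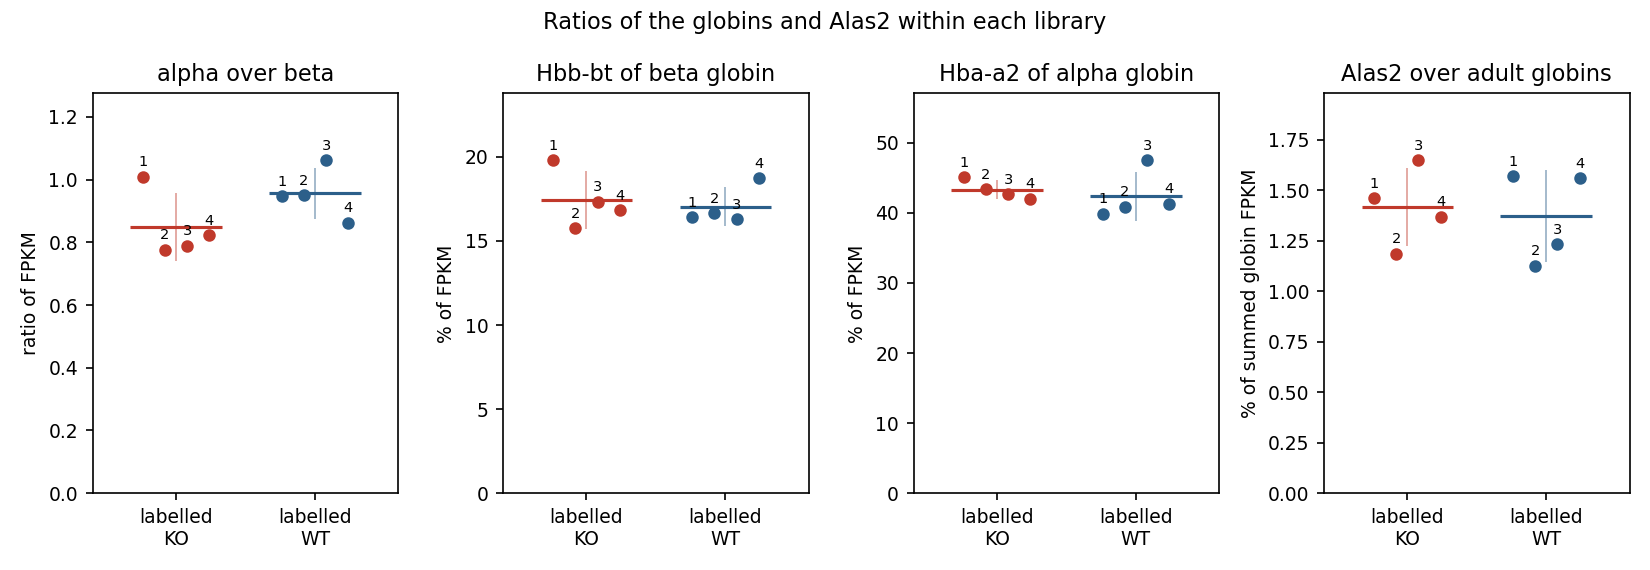
Ratios within each library, on axes that start at 0: alpha over beta globin FPKM, Hbb-bt as a share of beta globin, Hba-a2 as a share of alpha globin, and Alas2 as a share of the 4 adult globins. Points are libraries with their replicate number, long bars are means and thin lines are 1 SD. The alpha to beta ratio runs from 0.776 to 1.06, while the summed globin FPKM run from 501 to 3125.

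Across the 8 libraries each of the 10 pairs of these genes was correlated on the log2 scale. Pearson's r ran from 0.957 for Hba-a2 with Alas2 (exact permutation p = 0.00166, adjusted over the 10 pairs 0.00166) to 0.994 for Hba-a1 with Hba-a2 (p = 0.000223, adjusted 0.000446). All 10 pairs were past 0.05 after adjustment. Hbb-bs and Hba-a1, which lie on different chromosomes, had r = 0.984 (p = 2.48e-05, the smallest that the exact permutations can give, adjusted 0.000248). Their Spearman's rho was 1 (exact permutation p = 4.96e-05, adjusted 0.000496), so both put the 8 libraries in the same order. Hbb-bs and Alas2 had r = 0.972 (exact permutation p = 0.000422, adjusted 0.000602) and rho = 0.929 (p = 0.00223, adjusted 0.00279). Without KO replicate 1 and WT replicate 1, the libraries farthest from the median of Hbb-bs, these pairs had r = 0.977 and r = 0.958 over 6 libraries. After centring each group the r values were 0.987 and 0.963.

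The other globin genes were at or near 0. Of 6 listed, the embryonic genes Hbb-y, Hbb-bh1 and Hba-x, and Hbb-bh2, are listed at 0 in all libraries, and the theta globins Hbq1a and Hbq1b stayed under 1 FPKM in every library. Their summed FPKM were 0 to 0.291 in the libraries labelled KO and 0.0718 to 0.375 in those labelled WT.

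The remaining genes of haem synthesis, which serve other tissues too, had a narrower range than Alas2. All 8 were tested and 0 were called, 7 with a log2 fold change above 0 (median 0.18), against 54.4% of all tested genes (median 0.02). On the TPM scale, which puts the median of all genes at -0.18 and 18.0% of them above 0, 2 of the 8 were above 0 (median -0.03). Their Pearson r with Hbb-bs ran from -0.0382 to 0.626. Alas1, the housekeeping form of the synthase, stood at 49.9, 72.8, 50.6 and 59.8 FPKM in the libraries labelled KO and 44.4, 52.9, 50.2 and 49.6 FPKM in those labelled WT. It thus exceeded Alas2 in every library, and KO replicate 1, the highest in Alas2, was not high in Alas1. Uros, uroporphyrinogen III synthase, stood at 18.5 to 20.6 FPKM in the libraries labelled KO against 14.9 to 17.4 FPKM in those labelled WT. Its groups did not overlap, but it did not pass (log2 fold change 0.26, limma adjusted p = 0.347). Alad, which joins the products of the synthase, had 0.20 (adjusted p = 0.545, and -0.01 on the TPM scale).

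Genes of haem and iron supply were not called either. Of 8 listed, 6 were tested and 0 were called, with 4 above 0 (median log2 fold change 0.08) and 1 on the TPM scale (median -0.12). Tmem14c, a mitochondrial porphyrin carrier, stood at 98.5 to 117 FPKM in the libraries labelled KO against 83.5 to 93.6 FPKM in those labelled WT (0.27, limma adjusted p = 0.347). Slc25a38, a mitochondrial glycine carrier, had a log2 fold change of 0.12 (adjusted p = 0.678, and -0.09 on the TPM scale). Tfrc, the transferrin receptor that takes up iron, ranged from 27.7 to 64.4 FPKM with r = -0.256 to Hbb-bs.

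Most genes listed for nucleated erythroid precursors and the red cell membrane were low in all libraries. Gata1 and Klf1, transcription factors that drive erythroid genes, reached 0.298 and 0.547 FPKM at most. Slc4a1, the anion exchanger band 3, reached 1.25 FPKM at most, in KO replicate 1. Of the 10 membrane genes only Ank1 and Sptb were tested, at 160 to 249 and 22.7 to 29.0 FPKM, and both also have forms made in muscle. Neither was called: Sptb, beta spectrin, had a log2 fold change of -0.23 (limma adjusted p = 0.394) and Ank1, ankyrin 1, of -0.04 (adjusted p = 0.935, but 0.06 without KO replicate 2). Of 7 erythroid transcription factors and receptors with an entry, Lmo2, which endothelial cells also express, was tested (0.16, adjusted p = 0.725, and -0.05 on the TPM scale), and Tal1 averaged 0.960 FPKM.

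Some transcripts known from reticulocytes and red cells did follow the globins. Of 12 listed, 7 were tested and 0 were called between the groups. As deposited, 4 of the 7 were above 0 (median log2 fold change 0.14), against 54.4% of all tested genes. On the TPM scale 3 of the 7 were above 0 (median -0.06), against 18.0% of all genes. Ube2l6, the ubiquitin-conjugating enzyme that also acts on the modifier ISG15, had 20.1, 12.2, 13.2 and 8.68 FPKM in the libraries labelled KO and 6.47, 6.72, 9.31 and 9.86 FPKM in those labelled WT. Mkrn1, a RING ubiquitin ligase, had 29.2, 17.2, 19.0 and 14.2 FPKM in the libraries labelled KO and 11.4, 10.7, 14.7 and 17.6 FPKM in those labelled WT. Both were highest in KO replicate 1 and lowest in WT replicate 1 or 2, as the 5 followed genes were.

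Their correlation with Hbb-bs was tested among 68 list genes. Pearson's r was 0.966 for Ube2l6 (exact permutation p = 0.000174, adjusted 0.00928) and 0.932 for Mkrn1 (p = 0.000744, adjusted 0.0169). After adjustment for r 3 list genes were past 0.05, both of these included, where 5 had an unadjusted p under 0.05. By rank, rho was 0.952 for Ube2l6 (exact permutation p = 0.00114, adjusted 0.0759) and 0.857 for Mkrn1 (p = 0.0107, adjusted 0.243), so neither passed. Without KO replicate 1 and WT replicate 1, r was 0.931 for Ube2l6 and 0.857 for Mkrn1 over 6 libraries. Other tested genes of the same list did not follow, and Car2 (r = -0.270) and Fam210b (r = -0.430) had an r below 0. Bpgm, which makes the 2,3-bisphosphoglycerate that tunes oxygen release by haemoglobin, had 40.9 to 73.5 FPKM and r = 0.347, and Bnip3l, which clears mitochondria from maturing red cells, 31.1 to 40.9 FPKM and r = 0.531. What part of their RNA came from red cells was not tested.

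**Figure D4:**
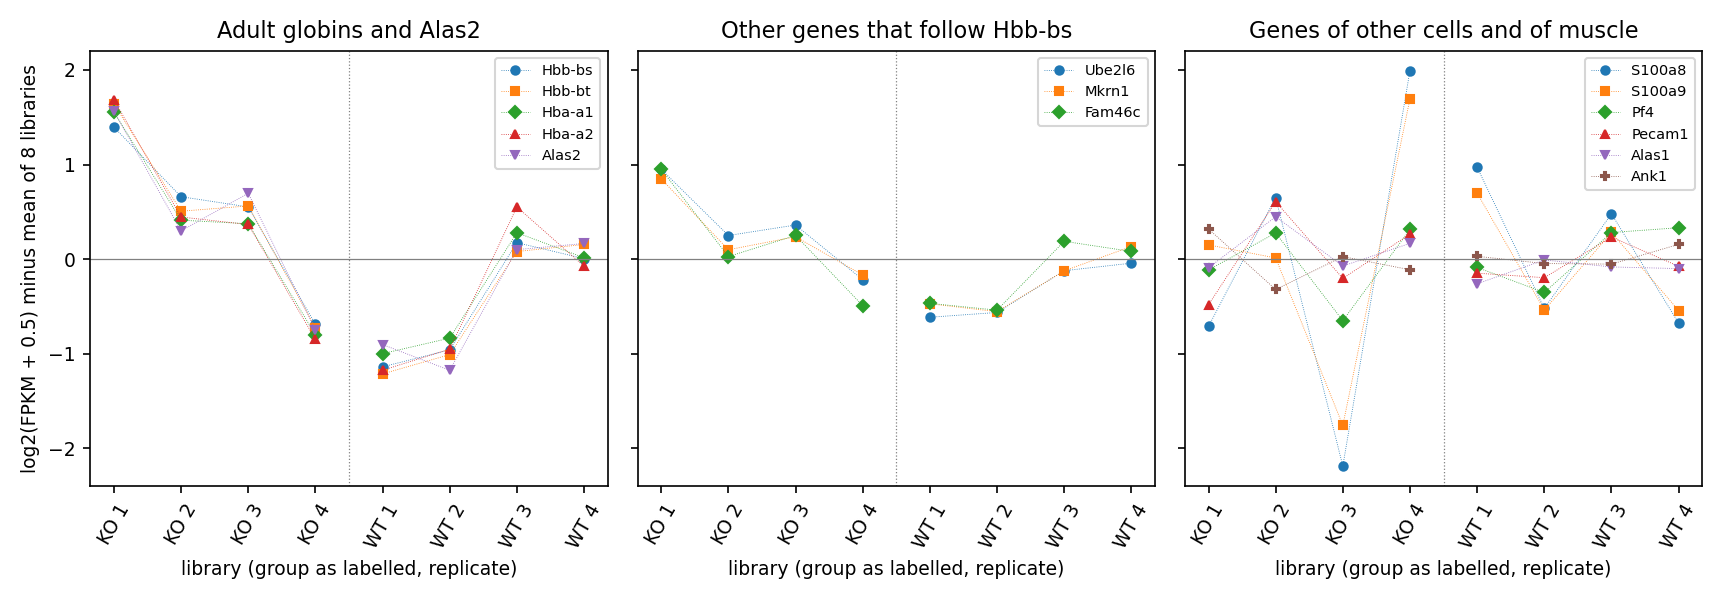
Log2(FPKM + 0.5) minus the mean of the 8 libraries, for the 5 genes (left), for Ube2l6, Mkrn1 and Fam46c (middle) and for genes of neutrophils, platelets and macrophages, endothelium and muscle (right). Libraries are in the order of their labels, and dotted lines only join values of the same gene. The globins are highest in KO replicate 1, where S100a8 has 4.57 FPKM against 32.6 FPKM in KO replicate 4.

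The search for the genes most like Hbb-bs ran over all tested genes, by Pearson's r over the 8 libraries after centring each group. The 3 other globins came first and Alas2 in place 6. The 8 genes outside the set with the highest r were Cfd (0.970), 4933431K14Rik (0.968), Srsf9 (0.960), Ube2l6 (0.960), Fam46c (0.953), Ero1lb (0.938), Rpl35a (0.937) and Rps6-ps4 (0.935). Without centring, r was 0.272 for Ero1lb, 0.380 for Rps6-ps4 and 0.701 for Srsf9, and 0.887 to 0.966 for the other 5. These are the highest of 11878 genes over only 8 libraries, so the list is a description. Fam46c, a poly(A) polymerase, had 4.37, 2.07, 2.50 and 1.29 FPKM in the libraries labelled KO and 1.32, 1.23, 2.37 and 2.17 FPKM in those labelled WT. Cfd, the fat cell protease adipsin, had a much smaller range, from 218 FPKM in KO replicate 4 to 336 FPKM in KO replicate 1. Isg20, an exonuclease that came next after these 8, was singled out after its values were seen. It had 10.2, 8.21, 7.06 and 4.98 FPKM in the libraries labelled KO and 2.77, 3.76, 4.97 and 6.13 FPKM in those labelled WT.

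Genes that take up and break down haemoglobin and haem had narrower ranges. Of 11 listed, 10 were tested and 0 were called, with 5 above 0 (median log2 fold change -0.03) and 0 on the TPM scale (median -0.24). Cd163, the macrophage receptor for haemoglobin bound to haptoglobin, stood at 7.68 to 11.7 FPKM in the libraries labelled KO and 9.18 to 13.8 FPKM in those labelled WT. Hmox1, the inducible haem oxygenase, stood at 6.37 to 9.42 FPKM in the libraries labelled KO and 7.39 to 9.13 FPKM in those labelled WT. Both were lower in KO replicate 1 than in KO replicate 2, though Cd163 was lower still in KO replicate 3. Over the 10 tested genes Pearson's r with Hbb-bs ran from -0.752 to 0.692, and 0 passed after adjustment. Slc40a1, the iron exporter ferroportin, had a log2 fold change of -0.28 (limma adjusted p = 0.502) and Blvra, a biliverdin reductase, of 0.19 (adjusted p = 0.550, and -0.01 on the TPM scale).

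Neutrophil markers, summed over 13 genes, were 20.3, 29.7, 6.48 and 101 FPKM in the libraries labelled KO and 46.4, 20.5, 39.1 and 18.7 FPKM in those labelled WT. They were highest in KO replicate 4, the KO library with the least globin (r = -0.471 with Hbb-bs, exact permutation p = 0.237, adjusted 0.715 over 14 lists). S100a8 and S100a9, the subunits of calprotectin, had 32.6 and 31.3 FPKM in KO replicate 4 against 1.32 and 2.40 FPKM in KO replicate 3. Of 7 tested neutrophil genes 0 were called. Mmp9, a gelatinase, had a log2 fold change of -0.33 (limma adjusted p = 0.711) and Camp, the antimicrobial peptide precursor, of -0.65 (adjusted p = 0.793).

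Platelet markers summed to 60.7 to 111 FPKM in the libraries labelled KO and 69.8 to 108 FPKM in those labelled WT (r = 0.0640 with Hbb-bs, exact permutation p = 0.875), and of 5 tested 0 were called. Most of that sum was the chemokine Pf4, which macrophages also express, at 46.6 to 92.5 FPKM. Ppbp, a chemokine of platelet granules, had 5.98, 1.89, 2.89 and 5.35 FPKM in the libraries labelled KO and 1.73, 1.98, 1.98 and 1.34 FPKM in those labelled WT (log2 fold change 0.90, limma adjusted p = 0.382). Gp1ba, a subunit of the platelet receptor for von Willebrand factor, had 0.15 (adjusted p = 0.799, and -0.01 on the TPM scale). KO replicate 1 was thus high in Ppbp as in the globins, but KO replicate 4 was nearly as high. The entries of Itga2b, Gp1bb and Clec1b in this sum are each joint with another gene.

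B cell markers were at trace level, summing to 2.18, 1.55, 1.43 and 0.566 FPKM in the libraries labelled KO and 1.40, 1.01, 0.940 and 0.898 FPKM in those labelled WT, and 0 of 7 reached the filter. Over all 8 libraries their sum had r = 0.633 with Hbb-bs (exact permutation p = 0.0910, adjusted 0.637 over 14 lists). Among the libraries labelled KO the sum had the same order as Hbb-bs, whereas among those labelled WT the libraries with the most B cell markers had the least Hbb-bs. Cd79b, a subunit of the B cell receptor, stood highest in KO replicate 1, and its part in the globin result was not tested. T cell markers summed to 3.99 to 5.84 FPKM in the libraries labelled KO and 3.25 to 6.71 FPKM in those labelled WT. Of 3 tested 0 were called, with 0.29 for Cd3e (limma adjusted p = 0.696) and -0.28 for Cd2 (adjusted p = 0.695). Monocyte markers summed to 13.4 to 40.8 FPKM in the libraries labelled KO and 10.4 to 16.2 FPKM in those labelled WT, again highest in KO replicate 4. Of 3 tested 0 were called. Plac8 had 31.02 FPKM there and 8.10 to 9.42 FPKM in the other libraries labelled KO (log2 fold change 0.81, adjusted p = 0.537), and the chemokine receptor Ccr2 had -0.22 (adjusted p = 0.823).

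Endothelial markers summed to 116 to 215 FPKM in the libraries labelled KO and 124 to 174 FPKM in those labelled WT (r = 0.00604 with Hbb-bs, exact permutation p = 0.988). KO replicate 1, the highest in globin, was the lowest of all libraries in this sum. Of 10 tested 0 were called and 9 were above 0 (median 0.19), against 54.4% of all tested genes. On the TPM scale 3 of the 10 were above 0 (median -0.01), against 18.0% of all genes. As deposited, the log2 fold changes were 0.36 for the VEGF receptor Kdr (limma adjusted p = 0.579) and 0.35 for the receptor Tie1 (adjusted p = 0.566). Muscle markers had r = 0.215 with Hbb-bs (exact permutation p = 0.613), and of 6 tested 0 were called. Their sum includes Tnnt3 and Atp2a1 with the values of 0 named above, so this r is uncertain. Pvalb, the calcium buffer of fast fibres, had -0.28 (adjusted p = 0.727). Mb, myoglobin, had 1838, 4704, 3645 and 4010 FPKM in the libraries labelled KO and 1624, 1695, 1686 and 1937 FPKM in those labelled WT (log2 fold change 0.95, limma adjusted p = 0.347, but 0.00573 without KO replicate 1). KO replicate 1 was thus the lowest of its group in myoglobin and the highest in all 5 of the transcripts followed here. Over the 14 lists 0 correlations of a summed list with Hbb-bs passed after adjustment, and 1 had an unadjusted exact permutation p under 0.05, that of the reticulocyte list (r = 0.743, p = 0.0191, adjusted 0.267).

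**Figure D5:**
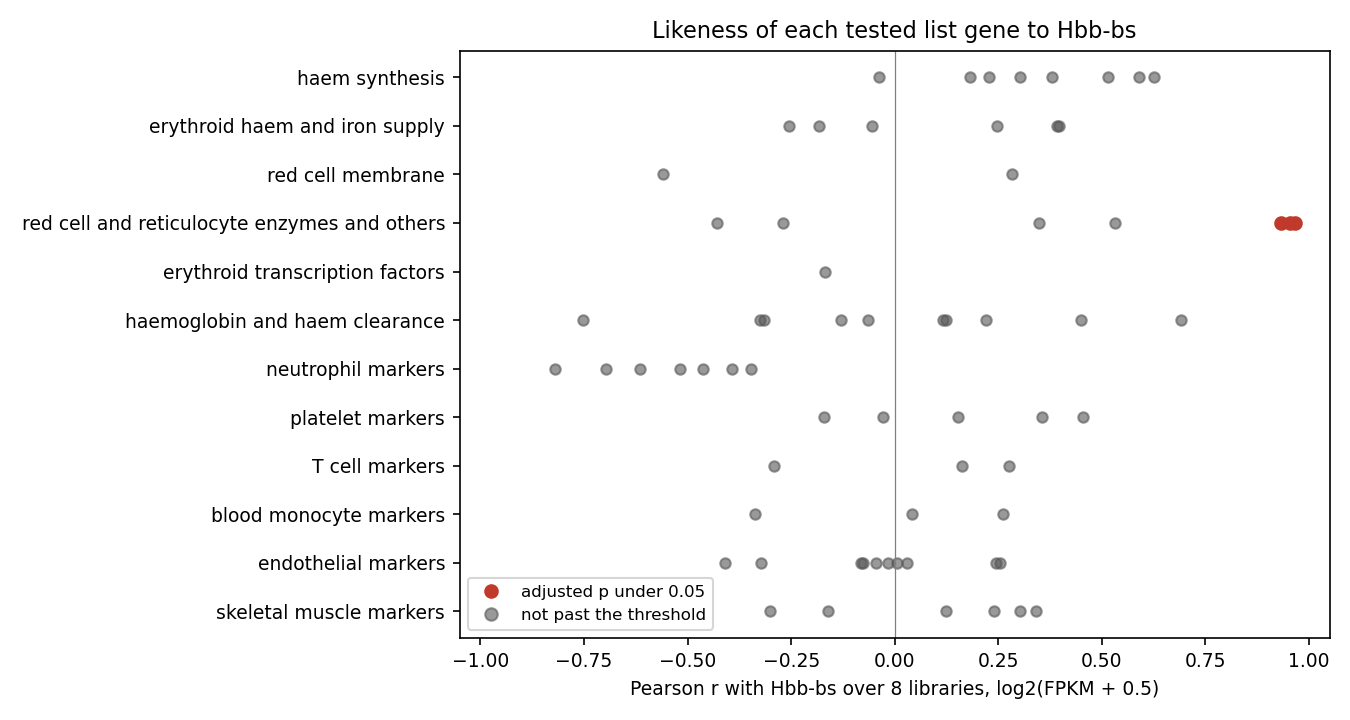
Pearson's r with Hbb-bs over the 8 libraries for each of the 68 tested list genes, by list. Red points had an exact permutation p under 0.05 after adjustment over the 68 genes. The red points lie between 0.932 for Mkrn1 and 0.966 for Ube2l6, and the 7 neutrophil genes all lie below 0.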

How the data were processed

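RNA was measured in quadriceps of 8 mice, 4 per genotype label. Per the labels, mRNA was enriched on oligo(dT) beads, ribosomal RNA was removed and paired ends were sequenced. The authors deposited 1 table of FPKM per library, per the file headers. The submitters' processing notes list Cufflinks 2.2.1, Bowtie2 2.2.6, TopHat2 2.1.1 and FastQC with build mm10, without roles. Annotation, filters, strand setting and the treatment of shared fragments are not given in the sources used here. Without counts no counting interval is given.

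Each table had 46036 entries, 2379 without a name, which carried 65.8% to 93.2% of summed FPKM and were left out. For names on several entries the highest mean was used. No 2 libraries shared more than 0.00601% of values above 0, so none was counted double. Genes averaging 1 FPKM or more, 11878 in all, entered limma 3.58.1 (R 4.3.3) as log2(FPKM + 0.5), the difference being labelled KO minus labelled WT (trend, two-sided, threshold 0.05), and single values were tested by exact permutation over 70 assignments. Correlations used all pairings of 8 libraries (scipy 1.17.1). The pipeline was tested on simulated data. Sequences are from RefSeq (GRCm38.p6, all 5 genes matched) and GENCODE M21, of the files' build. Starts were moved by 1 base to count from 1. The TPM scale sets the sum of named genes equal in all libraries.

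The members, the 14 further gene lists, the naming rule and the alternatives were chosen with earlier results of these data known. From each list the text names the 2 tested genes with the smallest p and, for blood lists, the 2 most abundant, beside the 8 genes most like Hbb-bs. Further genes, such as Alas1, Tfrc, Gata1, Klf1, Slc4a1, Cd163 and Hmox1, were named for their roles or after their values were seen. No entry was found for Ahsp, Abcb10, Zfpm1 and Acta1, not analysed here, and some list genes that the rule names are not reported here.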

Additional observations from a re-analysis of the deposited data

Results flagged for a closer look

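Among 4 libraries of a group, a library was singled out when its gap to the next relative to the group's range was above Dixon's 95% critical value, which chance gives in about 1 group in 20. Of 46 groups, 2 met this. Hbb-bt made up 18.75% of beta globin FPKM in WT replicate 4, apart from the other libraries labelled WT, whose shares lay close together. Summed monocyte markers were 40.8 FPKM in KO replicate 4, apart from the other libraries labelled KO. Neither FPKM of any of the 5 genes nor their sum was singled out, although KO replicate 1 was the highest in each.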

How the results depend on the processing

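None of 20 alternatives called any of the 5 genes, and all 100 log2 fold changes stayed above 0, from 0.38 to 1.40, with adjusted p from 0.439 to 0.9999. Leaving out 1 library gave 0.65 to 1.35 for Hbb-bs, 0.61 to 1.40 for Hbb-bt, 0.38 to 1.16 for Hba-a1, 0.40 to 1.24 for Hba-a2 and 0.54 to 1.31 for Alas2. The TPM scale gave 0.75, 0.78, 0.56, 0.61 and 0.72 with the median over all genes at -0.18, against 0.02 as deposited. The count of genes called, 6, was 123 on the TPM scale and 123 scaled without the members, 0 with the replicate block (limma, 958 genes at unadjusted p under 0.05), and 4 to 124 with each library left out, 124 without KO replicate 1 and 10 without KO replicate 2. With the TPM scale and scaled without the members, Alad (-0.00708 and -0.00535), Slc25a38 (-0.0877 and -0.0860), Lmo2 (-0.0488 and -0.0471), Blvra (-0.0132 and -0.0115) and Gp1ba (-0.00768 and -0.00631) turned below 0, and Ank1 turned above 0 without KO replicate 2 (0.0561) and without WT replicate 4 (0.00115), from a lowest of -0.16 with each library left out. The cause was not tested. Without KO replicate 1 Mb passed (1.24). The log2 ratio of summed globin FPKM, 0.98, ran from 0.51 to 1.25 with each library left out, the difference in alpha to beta ratio from -0.16 to -0.07 and that in the share of Hbb-bt from -0.39 to 0.98 percentage points. All 10 member pairs stayed past the threshold. The labels share replicate numbers, but same-numbered libraries did not deviate together (r from -0.0809 to 0.00933). With each group centred on only 4 libraries, these r values cannot settle whether the numbers pair the libraries. With the replicate block Hbb-bs kept 0.96 (adjusted p = 0.694), and Mss51 kept 3.07 (adjusted p = 0.0530). Without counts, the precision of low values is not known.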
